A study of Mus musculus with 24 samples.

Results

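The 8 genes described here are the 2 liver X receptors, Nr1h3 (LXR alpha) and Nr1h2 (LXR beta), and 6 genes known as their targets: Abca1, Abcg1, Apoe, Mylip, Lpcat3 and Srebf1. They were taken by symbol from the 55414 gene identifiers that every count file lists, and all 8 passed the filter on low counts that left 19616 genes for testing. Expression was measured by RNA sequencing in LSK cells of bone marrow, which are sorted as lacking lineage markers and carrying Sca-1 and Kit, and which hold the blood-forming stem cells and multipotent progenitors. The 4 groups were female and male pups at postnatal day 21 whose C57BL/6J dams ate either regular chow (control) or a Western diet meant to make the dams obese. The dams' diets began 4 weeks ahead of mating and went on through pregnancy and nursing. Each group had 6 libraries, 2 in each of 3 labelled batches. The labels name neither dam nor litter, so p-values measure only the spread between these libraries, and libraries of littermates cannot be told apart from unrelated ones.

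Liver X receptors are nuclear receptors that sense oxysterols, oxidised forms of cholesterol that build up when a cell holds too much of it. Each receptor pairs with a retinoid X receptor (RXR) on DNA and raises the transcription of genes that load cholesterol onto lipoproteins, limit its uptake and make fatty acids. In blood-forming progenitors, the exporters Abca1 and Abcg1 and the lipoprotein protein Apoe are known for holding back growth by keeping membrane cholesterol low.

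The libraries held 38057263 to 51581968 counts in genes. Levels are in CPM, a gene's counts out of every 1000000 in its library, with library sizes adjusted by TMM. The sort marker Kit was plain in all 24 libraries (267 to 883 CPM), whereas Ly6a, which encodes Sca-1, stood at only 2.14 to 39.9 CPM (median 13.3). Of all genes, 1064 were called for diet in females and 154 were when both female control libraries of batch 3 were left out, so the diet results of the 8 genes and of the called pathway genes were also computed without that pair. All of the macrophage (15), B cell (8), T and NK cell (7), mature erythroid (8) and stromal and endothelial (7) markers examined were above 0 in every library.

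Maternal Western diet went with more RNA of the cholesterol exporters Abca1 and Abcg1 and with no called change in the receptors. Averaged over the sexes, Abca1 rose 1.47-fold and Abcg1 rose 1.73-fold, and these were the only 2 of the 8 genes called at an adjusted p under 0.05. Over all genes tested, 5.70% were called in that comparison, 2.19% higher and 3.51% lower. In females 1 of the 8 was called, Abcg1 (1.92-fold higher), against 5.42% of all genes, 2.20% higher and 3.22% lower. In males 0 of the 8 were called, against 0.0102% of all genes. By unadjusted p under 0.05 in the same edgeR test, 3 of the 8 passed in females, 3 in males and 3 in the average. The shares of all genes were 21.3%, 8.45% and 20.6%. The median log2 fold change of the 8 was -0.04 in females, 0.23 in males and 0.01 in the average, beside 0.03, 0.02 and 0.02 over all genes tested. In no gene of the 8 did the 6 Western libraries of a sex lie wholly outside the range of its 6 controls, and such separation was seen in 1.18% of all genes in females and 0.500% in males. In bulk RNA, fewer cells of one type and less RNA per cell cannot be told apart.

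**Figure D1:**
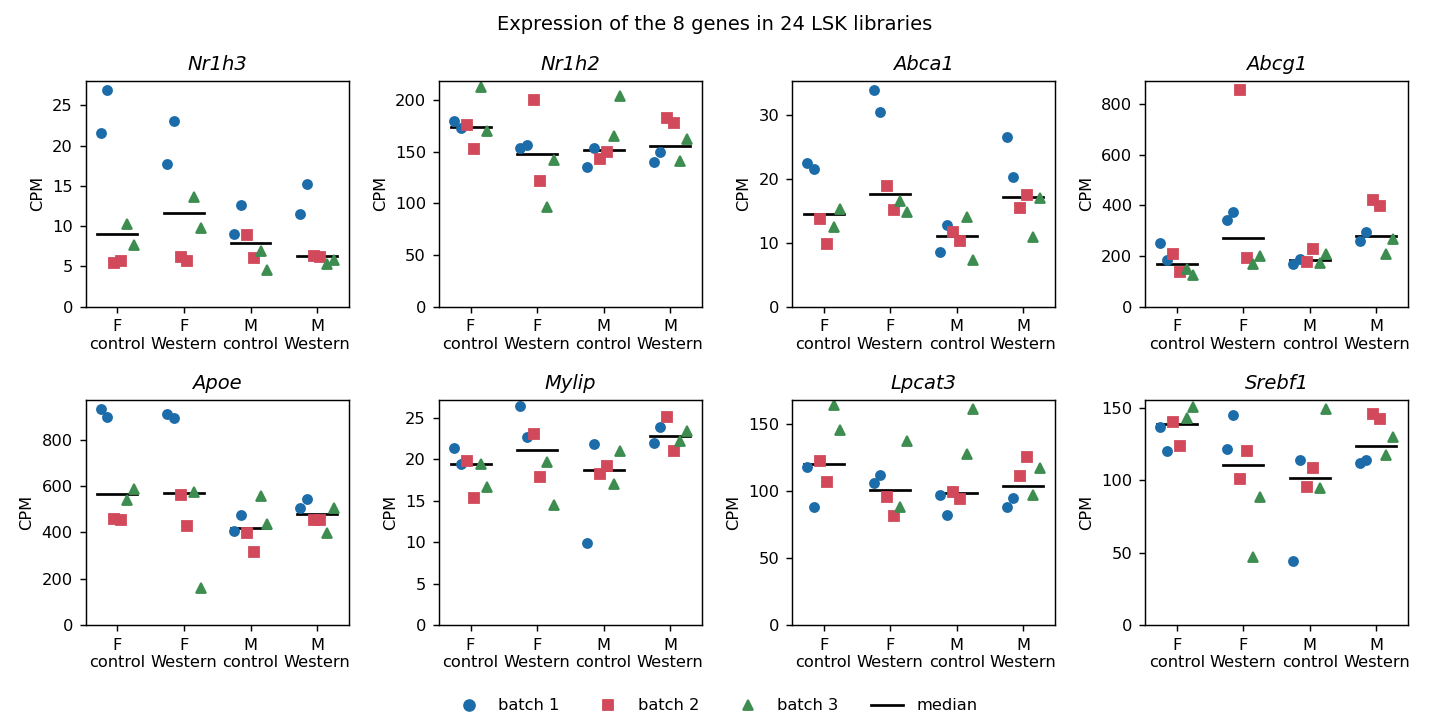
Level of each of the 8 genes in CPM (vertical axis, linear, from 0) in the 24 libraries, by sex (F, M) and maternal diet. Each point is a library, its colour and shape give the batch, and the bar is the median of 6. Abcg1 in 1 female Western library, at 855.6 CPM, lies far above all others, and Nr1h3 is highest in batch 1.

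Nr1h2, the more widely expressed receptor, was the abundant one. It ranged from 153.0 to 212.6 CPM (median 174.3) in female controls and from 96.7 to 199.8 (median 148.1) in Western females. In males it ranged from 134.8 to 204.2 (median 152.0) in controls and from 139.5 to 182.4 (median 155.8) after Western diet. The ranges overlapped in both sexes, with 3 of 6 Western females below every female control. The log2 difference was -0.29 ± 0.14 (SE) in females (edgeR adjusted p = 0.225) and 0.00 ± 0.14 in males (adjusted p = 0.999).

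Nr1h3, the receptor known from macrophages and liver, was low and varied several-fold within every group. It ranged from 5.39 to 26.9 CPM (median 8.97) in female controls, from 5.66 to 23.1 (median 11.7) in Western females, from 4.55 to 12.6 (median 7.87) in male controls and from 5.35 to 15.2 (median 6.22) in Western males. Diet groups overlapped almost wholly in both sexes. The log2 difference was 0.07 ± 0.22 in females and -0.03 ± 0.22 in males, with an interval for the average of the sexes from -0.30 to 0.34. Nr1h2 exceeded Nr1h3 in every library, by a median of 15.8 times per length of transcript (range 4.81 to 33.7).

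Abca1, the membrane pump that hands cholesterol to lipid-poor apolipoprotein A-I, was low in control pups. It ranged from 9.74 to 22.5 CPM (median 14.5) in female controls and from 14.9 to 33.97 (median 17.7) in Western females. In males it ranged from 7.33 to 14.1 CPM (median 10.97) in controls and from 10.8 to 26.5 (median 17.2) after Western diet. In males, 5 of 6 Western libraries lay above every control, while in females the ranges overlapped widely and 2 of 6 did. The log2 fold change was 0.43 ± 0.18 in females (adjusted p = 0.182), 0.68 ± 0.19 in males (adjusted p = 0.249) and 0.55 ± 0.13 in the average (95% interval 0.28 to 0.82, adjusted p = 0.0133, edgeR quasi-likelihood test). The fitted rise differed between the sexes by 0.25 ± 0.26 (adjusted p = 0.792), an interval of -0.29 to 0.79 that holds both no difference and a difference larger than the rise itself.

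Abcg1, which passes cholesterol on to mature high-density lipoprotein, was the abundant exporter. It ranged from 122.8 to 251.3 CPM (median 167.1) in female controls and from 167.4 to 855.6 (median 271.4) in Western females. In males it ranged from 166.6 to 228.2 CPM (median 182.2) in controls and from 208.6 to 419.9 (median 280.2) after Western diet. Again 5 of 6 Western males lay above every male control, and 3 of 6 Western females lay above every female control. The log2 fold change was 0.94 ± 0.26 in females (95% interval 0.40 to 1.48, adjusted p = 0.0355), 0.64 ± 0.26 in males (adjusted p = 0.493) and 0.79 ± 0.18 in the average (0.41 to 1.17, adjusted p = 0.0120, edgeR). The difference between the sexes was -0.30 ± 0.36 (adjusted p = 0.818).

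The female value of Abcg1 leans on 1 library. Western female 3, of batch 2, held 37148 counts of Abcg1, and without it the female log2 fold change was 0.54 ± 0.19 (adjusted p = 0.106) and that of the average 0.59 ± 0.13 (adjusted p = 0.0079). The female call was also lost without female control 3, 4, 5 or 6 (0.92, 0.78, 0.97 and 0.91), without Western female 1 or 2 (0.91 and 0.88), without male control 4 (0.91) and without Western male 1, 2, 3 or 6 (0.91, 0.91, 0.91 and 0.90), the highest adjusted p of these being 0.106. Without both female control libraries of batch 3 it was 0.93 (adjusted p = 0.23). The average over the sexes stayed called with any 1 library left out, at 0.48 to 0.62 for Abca1 and 0.59 to 0.85 for Abcg1. Without that batch 3 pair the average of Abcg1 was 0.78 (adjusted p = 0.0541).

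Both exporters leaned the same way in every block of the design. A block here is 1 sex in 1 batch, with 2 control and 2 Western libraries. Abca1 had the higher Western mean in 6 of 6 blocks, by 0.18 to 1.14 on the log2 scale, and both Western libraries exceeded both controls in 4. Abcg1 had it in 6 of 6, by 0.31 to 1.60, with full separation in 5. In males of batch 1, Abca1 was 8.54 and 12.7 CPM in controls and 20.4 and 26.5 after Western diet, and in males of batch 2 Abcg1 was 176.4 and 228.2 in controls and 397.0 and 419.9 after it. Batch 3 gave the smallest differences of both genes in each sex.

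**Figure D2:**
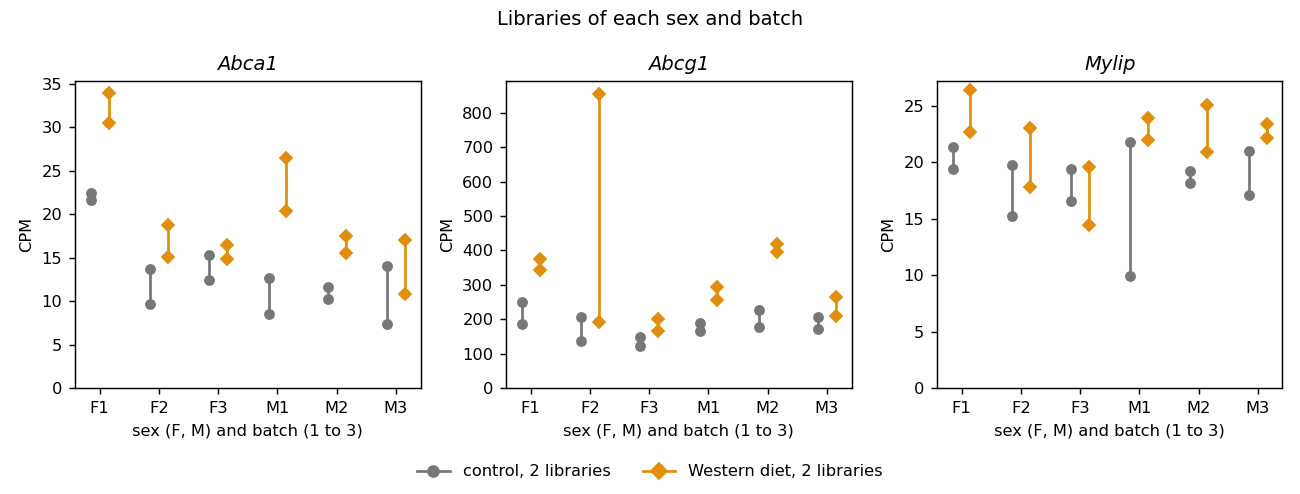
CPM (vertical axis, linear, from 0) of Abca1, Abcg1 and Mylip in the 6 blocks of sex (F, M) and batch (1 to 3). Points joined by a line are the 2 libraries of a block, grey for control and orange for Western maternal diet. The Western mean is higher in 6 of 6 blocks for Abca1 and Abcg1 and in 5 of 6 for Mylip.

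Apoe, the secreted apolipoprotein that accepts exported cholesterol, was the most abundant of the 8. It ranged from 452.6 to 935.4 CPM (median 565.3) in female controls, from 159.1 to 913.3 (median 568.9) in Western females, from 314.3 to 555.7 (median 420.5) in male controls and from 397.5 to 545.0 (median 479.8) in Western males. The groups overlapped in both sexes, and the widest range, in Western females, ran between 1 low library of batch 3 and both libraries of batch 1. The log2 difference was -0.15 ± 0.23 in females, 0.14 ± 0.23 in males and 0.00 ± 0.16 in the average (adjusted p = 0.995).

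Mylip, also called Idol, encodes a ubiquitin ligase that limits cholesterol uptake. It ranged from 15.3 to 21.4 CPM (median 19.4) in female controls and from 14.5 to 26.4 (median 21.2) in Western females. In males it ranged from 9.91 to 21.8 (median 18.7) in controls and from 20.9 to 25.1 (median 22.8) after Western diet. As with the exporters, 5 of 6 Western males lay above every male control. The log2 difference was 0.14 ± 0.16 in females (adjusted p = 0.657), 0.35 ± 0.16 in males (adjusted p = 0.543) and 0.25 ± 0.11 in the average (adjusted p = 0.199), so Mylip passed the threshold nowhere. Its Western mean was higher in 5 of 6 blocks, the exception being females of batch 3 (-0.08).

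Lpcat3, which builds polyunsaturated fatty acids into membrane phospholipids, ranged from 88.0 to 164.2 CPM (median 120.2) in female controls, 81.5 to 137.5 (median 100.8) in Western females, 82.2 to 161.2 (median 98.2) in male controls and 87.8 to 125.4 (median 104.1) in Western males. The groups overlapped, and the log2 difference was -0.24 ± 0.13 in females (adjusted p = 0.315) and -0.03 ± 0.13 in males (adjusted p = 0.966). Of its 3268 exon bases, 334 also belong to Emg1 on the opposite strand, and the library kit does not mark strand, so reads of both genes cannot be told apart there.

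Srebf1, which encodes the SREBP1 activator of fatty acid synthesis, had estimates of opposite sign in the sexes, neither past the test. It ranged from 120.3 to 150.6 CPM (median 138.7) in female controls and from 47.1 to 145.2 (median 110.7) in Western females, 5 of which were below the control mean. In males it ranged from 44.0 to 149.2 (median 101.9) in controls and from 111.9 to 146.0 (median 123.8) after Western diet, with all 6 Western libraries above the control mean. The log2 difference was -0.39 ± 0.22 in females (adjusted p = 0.325) and 0.33 ± 0.22 in males (adjusted p = 0.713). The diet effect in males less that in females was 0.71 ± 0.31 (unadjusted p = 0.0309, adjusted p = 0.59, edgeR). For that difference of effects 0 of the 8 genes and 0% of all genes were called, and 1 of the 8 against 8.32% of all genes had an unadjusted p under 0.05. The female value came mostly from batch 3, where both controls (142.9 and 150.6 CPM) exceeded both Western libraries (47.1 and 88.5): it was -1.12 within that batch (adjusted p = 0.0407) and -0.09 without it (adjusted p = 0.901). The exons of Srebf1 share 175 of 5634 bases with the neighbours Rai1 and Mir6922.

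**Figure D3:**
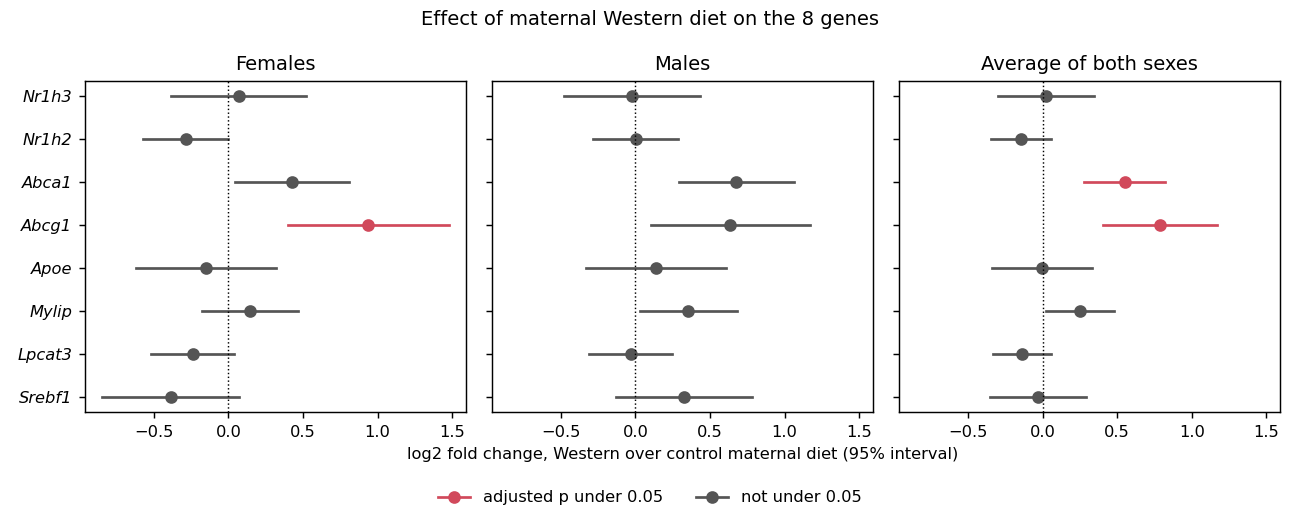
Log2 fold change of each of the 8 genes, Western over control maternal diet (horizontal axis), in females, males and their average. Points are edgeR estimates from all 24 libraries, bars are 95% intervals, and red marks an adjusted p under 0.05. Abcg1 is red in females, and Abca1 and Abcg1 are red in the average.

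Abca1 and Srebf1 carry related letters upstream of their starts. LXR and RXR dimers are known to bind direct repeats of the half-site AGGTCA spaced by 4 bases, a pattern called DR4. Promoters from RefSeq (build GRCm38.p6, 250 bases before to 50 after each start) were available for 7 of the 8 genes. None was available for Abcg1, which was therefore not searched. The promoters were searched on both strands for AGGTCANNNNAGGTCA, counting mismatches over its 12 fixed letters. The best match had 3 mismatches in Abca1, 52 to 67 bases before its start, and in 1 of the 3 Srebf1 starts, 167 to 182 bases before it. It had 4 or more in the other promoters of the 7 genes. A match that close is common, being present in 21.9% of all 32851 promoters searched, and the allowance of 3 was chosen after the matches were seen. The Abca1 and Srebf1 matches also share 14 of their 16 letters, written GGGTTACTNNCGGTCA on the reverse strand. Those letters occur in the promoters of 3 of 27025 genes, Abca1, Srebf1 and Fasn, the last being fatty acid synthase, another known LXR target. The following 60 bases of each, read 5′ to 3′ along the gene's own strand, show the shared stretch in capitals.
Abca1, chr4:53159925-53159984, minus strand: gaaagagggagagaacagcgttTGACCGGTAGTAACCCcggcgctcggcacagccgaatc
Srebf1, chr11:60210616-60210675, minus strand: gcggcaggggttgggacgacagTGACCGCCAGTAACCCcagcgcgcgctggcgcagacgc
Fasn, chr11:120824735-120824794, minus strand: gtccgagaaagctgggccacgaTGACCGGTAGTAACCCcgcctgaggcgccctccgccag

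Of these 3 genes, Abca1 alone was called for maternal diet. Averaged over the sexes the log2 fold change was 0.55 for Abca1, -0.03 ± 0.16 for Srebf1 (adjusted p = 0.947) and -0.14 ± 0.13 for Fasn (adjusted p = 0.591). A match of letters is a description of the sequence and was not tested as a binding site, and the letters were picked after both sequences were seen.

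On a scale of CPM per kilobase of exon, which allows levels of different genes to be compared, Apoe stood first at 250.6 ± 90.9 (SD, n = 24). Nr1h2 followed at 47.7 ± 7.84, then Abcg1 at 35.2 ± 20.7, Lpcat3 at 33.9 ± 7.15, Srebf1 at 20.8 ± 5.06, Mylip at 6.20 ± 1.14, Nr1h3 at 4.17 ± 2.49 and Abca1 at 1.60 ± 0.64. Only Apoe had a range that cleared its next neighbour. Abcg1 exceeded Lpcat3 in 11 of 24 libraries, so the order of that pair is not settled by these data. Abcg1 exceeded Abca1 in every library, by a median of 20.3 times per length (range 11.4 to 64.6).

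Sex comparisons called 0 of the 8 genes in control pups and 0 of the 8 in Western-diet pups, against 0.112% and 0.0816% of all genes. In controls 7 of the 8 had lower fitted levels in males, Abcg1 being the exception, beside 9029 of 19616 over all genes. The macrophage markers were lower in control males in 15 of 15 estimates. The male minus female log2 difference in controls was -0.48 ± 0.19 for Abca1 (adjusted p = 0.266), -0.52 ± 0.23 for Apoe (adjusted p = 0.332) and -0.46 ± 0.22 for Nr1h3 (adjusted p = 0.38), and for Nr1h3 it was -0.55 ± 0.22 in Western-diet pups (adjusted p = 0.717). By unadjusted p under 0.05, 2 of the 8 in controls and 1 in Western-diet pups passed the edgeR test, beside 13.2% and 6.75% of all genes.

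More of these genes were called between batches than between diets. A test of the 3 labelled batches called 4 of the 8, Nr1h3, Abca1, Apoe and Lpcat3, against 24.2% of all genes. Nr1h3 had the largest spread among the 8, with batch means 1.36 apart on the log2 scale (adjusted p = 3.42e-05) and medians of 16.5, 6.08 and 7.25 CPM in batches 1, 2 and 3. Abca1 spanned 0.63 (adjusted p = 0.0069), Apoe 0.62 (adjusted p = 0.0414) and Lpcat3 0.39 (adjusted p = 0.031). Nr1h3 was higher in batch 1 in both sexes. Its means in batches 1, 2 and 3 were 22.3, 5.73 and 10.3 CPM in females and 12.1, 6.83 and 5.64 in males. In Apoe the excess of batch 1 lay mostly in females, where it was 896.5 to 935.4 CPM in 4 libraries and no other library exceeded 589.8. The calls of Apoe and Lpcat3 depended on single libraries: Apoe lost its call in 15 of 24 leave-one-out fits, at 0.55 to 0.65, among them those without any of the 6 female controls. Lpcat3 lost it without female control 5 or 6, Western female 6, male control 4 or 6, or Western male 1 (0.33 to 0.40).

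Macrophage markers varied along with Nr1h3. The sum of 13 of them (all 15 but Cd5l and Mertk, which are themselves LXR targets) was 677 to 1736 CPM in batch 1, 323 to 578 in batch 2 and 316 to 793 in batch 3, and the 4 females of batch 1 alone exceeded 954.9. Over the 24 libraries this sum correlated with Nr1h3 at r = 0.97 and rho = 0.97 (permutation p = 1e-05 for each, the smallest that 100000 resamples can give, and 8e-05 adjusted over 8 genes). Without the 2 libraries farthest from the median of the sum, r was 0.96, and within batches 1, 2 and 3 it was 0.96, 0.66 and 0.96. For Abca1 r was 0.63 and rho 0.51 (permutation p = 0.00094 and 0.012, adjusted 0.00376 and 0.032), 0.54 without the 2 farthest libraries, and 0.57, -0.42 and 0.66 within batches, so the relation did not hold in batch 2. For Apoe r was 0.58 and rho 0.52 (permutation p = 0.00235 and 0.00957, adjusted 0.00627 and 0.032), 0.43 without the 2 farthest, and 0.96, -0.45 and -0.11 within batches, so it rests on batch 1. For Abcg1 r was 0.00 and rho -0.07 (permutation p = 0.988 and 0.734, adjusted 0.988 and 0.793), -0.06 without the 2 farthest, and 0.39, -0.30 and -0.46 within batches.

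**Figure D4:**
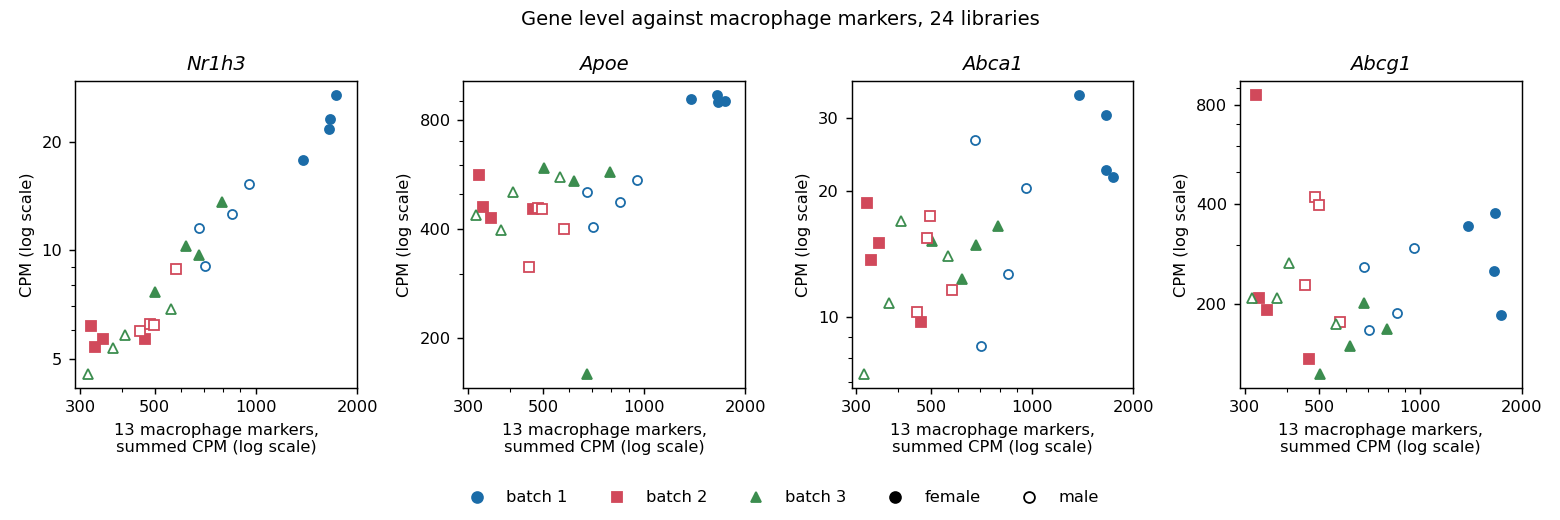
CPM of Nr1h3, Apoe, Abca1 and Abcg1 (vertical axes, log scale) against the summed CPM of 13 macrophage markers (horizontal axes, log scale) in 24 libraries, with colour and shape for batch, filled points for females and open ones for males. Nr1h3 follows the sum (r = 0.97), while Abcg1 shows no such trend (r = 0.00).

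Beside the diet result, the macrophage sum had a median of 561 CPM in female controls, 736 in Western females, 569 in male controls and 491 in Western males. Of the 15 markers, 0 were called for diet in females, males or the average, beside 5.42%, 0.0102% and 5.70% of all genes. The mean of the sum was higher after Western diet in 2 of the 6 blocks, females of batch 3 and males of batch 1. In males of batch 1, where Abca1 differed most, it was 705 and 849 CPM in controls and 677 and 955 in Western libraries. Of the mature erythroid markers, 3 of 8 fell in females, 0 of 8 passed in males and 6 of 8 fell in the average. Of all genes, 3.22%, 0.0102% and 3.51% fell. All 8 erythroid estimates were below 0 in each sex. By unadjusted p under 0.05 (edgeR), 4 of 8 passed in females and 8 of 8 in males, beside 21.3% and 8.45% of all genes. The summed medians of the 8 were 2498 and 1586 CPM in control and Western females and 4940 and 1980 in males. Of the B cell markers, 2 of 8 rose in females, 0 in males and 1 in the average. Their estimates were above 0 in 8 of 8 in females and 3 of 8 in males. By unadjusted p under 0.05 (edgeR), 4 of 8 passed in females and 1 of 8 in males. Their summed medians were 714 and 1050 CPM in control and Western females and 933 and 925 in males. Of the LSK markers 1 of 9 rose in females, and 0 in males or the average. Over all genes, 2.20%, 0% and 2.19% rose in females, males and the average. The neutrophil and monocyte (10), T and NK cell (7) and stromal and endothelial (7) lists had 0 members called for diet in either sex or the average. The part of any of these lists in the exporter result was not tested.

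Levels of the 8 genes were compared with each other over the 24 libraries in 28 pairs, 9 of which had an adjusted permutation p under 0.05 for r. The 9 include Abca1 with Apoe (r = 0.60, rho = 0.74), Nr1h3 with Apoe (0.60, 0.63), Abca1 with Mylip (0.54, 0.56) and Mylip with Srebf1 (0.56, 0.30). Without the 2 libraries farthest from the median of the gene named first, r of these was 0.45, 0.45, 0.46 and 0.13. The same rule applies to every pair given below, so libraries extreme only in the second gene were not removed. Abca1 and Abcg1 correlated at r = 0.49 and rho = 0.56 (permutation p = 0.0144 and 0.00452, adjusted 0.0447 and 0.0174), 0.40 without the 2 farthest libraries, and 0.83, 0.82 and -0.14 within batches 1, 2 and 3, so the relation was not seen in batch 3. Abcg1 and Mylip correlated at r = 0.59 and rho = 0.80 (permutation p = 0.00554 and 2e-05, adjusted 0.0222 and 0.00056), 0.61 without the 2 farthest, and 0.70, 0.85 and 0.52 within batches. Of the 7 pairs that include Abcg1, this was the only one above 0.5 within each batch.

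Among the receptors, Nr1h2 correlated with Srebf1 at r = 0.68 and rho = 0.66 (permutation p = 0.00064 for each, adjusted 0.0077 and 0.00597), 0.48 without the 2 farthest, and 0.67, 0.27 and 0.90 within batches. It correlated with Lpcat3 at r = 0.62 and rho = 0.60 (permutation p = 0.00097 and 0.00216, adjusted 0.0077 and 0.0101), 0.53 without the 2 farthest, and 0.37, 0.63 and 0.89 within batches. Nr1h3 correlated with Abca1 at r = 0.68 and rho = 0.63 (permutation p = 0.00024 and 0.0014, adjusted 0.00672 and 0.00784), 0.60 without the 2 farthest, and 0.64, -0.11 and 0.60 within batches. The relation to Abcg1 passed the threshold for neither receptor, with r = 0.03 and rho = 0.02 for Nr1h3 (permutation p = 0.878 and 0.934, also when adjusted) and r = 0.31 and rho = 0.25 for Nr1h2 (permutation p = 0.142 and 0.235, adjusted 0.332 and 0.44). All libraries share the diet and batch structure, so these values describe these samples.

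Of 9059 tested genes with a mean of at least 10 CPM, those most like Abcg1 across the 24 libraries after removal of batch means were Klhl3 (r = 0.93), Bace1 (0.92), Dpysl2 (0.92) and Phactr2 (0.91). The genes most like Abca1 were Gngt2 (0.77), Frmd4b (0.75), Rit1 (0.72) and Slc25a27 (0.68). Diet means were not removed, so a shared diet difference is part of this likeness. The likeness to Abcg1 includes the library at 855.6 CPM.

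Of 19 further LXR targets 14 could be tested, and in the average 3 rose and 0 fell, against 2.19% higher and 3.51% lower over all genes, with a median log2 fold change of -0.01 beside 0.02 over all genes. The 3 were Scd2 and Scd1, which desaturate fatty acids, and Arl4c, a small GTPase. Scd2 ranged from 89.9 to 142.0 CPM (median 103.5) in male controls and from 143.7 to 221.1 (median 167.6) in Western males, 2 ranges that did not overlap (0.500% of all genes in males). In females its ranges, 81.4 to 171.2 and 117.0 to 187.9 CPM, overlapped. Scd2 gained 0.52 ± 0.10 in the average (adjusted p = 0.00249), with 0.37 ± 0.14 in females (adjusted p = 0.129) and 0.66 ± 0.14 in males (adjusted p = 0.101). Arl4c gained 0.50 ± 0.11 in the average (adjusted p = 0.00929) and 0.59 ± 0.16 in females (adjusted p = 0.0315). Scd1 gained 0.52 ± 0.15 (adjusted p = 0.0438), a call lost in 20 of 24 leave-one-out fits (0.44 to 0.62 over all 24, highest adjusted p = 0.106). Abcg5, Abcg8, Mlxipl, Apoc2 and Cyp7a1, known from liver and gut, were too low to test.

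Of the 17 RXR partners and coregulators, all were tested and 0 were called in females, males or the average, beside 5.42%, 0.0102% and 5.70% of all genes. By edgeR, 4, 0 and 3 of the 17 had an unadjusted p under 0.05, beside 21.3%, 8.45% and 20.6% of all genes. The most abundant of the 17, the Mediator subunit Med1, differed by 0.06 ± 0.11 in the average. Of 8 enzymes that make or break down oxysterols, 6 could be tested, and 1 rose in the average, beside 2.19% of all genes. This was the oxysterol hydroxylase Cyp39a1 (0.68 ± 0.18, adjusted p = 0.0272). It was at 2.20 to 11.1 CPM over the groups, and its call was lost in 5 of 24 leave-one-out fits (lowest 0.58, without Western female 3, adjusted p = 0.0643). Ch25h and Hsd3b7 were too low to test.

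Among 17 genes of sterol storage and transport, 1 rose and 2 fell, both in the average and in females. Over all genes, 2.19% were higher and 3.51% lower in the average, and 2.20% and 3.22% in females. Soat1, which esterifies cholesterol for storage, rose by 0.56 ± 0.14 in the average (adjusted p = 0.016) and by 0.71 ± 0.19 in females (adjusted p = 0.0334). Its partner enzyme Soat2 fell by 0.60 ± 0.10 in the average (adjusted p = 0.000918). In females it was 7.10 to 13.5 CPM (median 8.59) in controls and 4.82 to 5.98 (median 5.15) after Western diet, with no overlap (1.18% of all genes in females). In males its ranges overlapped, 5.17 to 10.2 CPM in controls and 4.79 to 6.73 after Western diet, and the log2 difference was -0.38 ± 0.15 (adjusted p = 0.464). The female calls of Soat1 and of Arl4c were lost in 11 and in 6 of 24 leave-one-out fits (lowest 0.52 for Soat1 and 0.49 for Arl4c).

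Abcg4, the close relative of Abcg1 and likewise a sterol exporter, moved the other way from Abcg1. It ranged from 16.8 to 74.3 CPM (median 31.9) in female controls and from 6.11 to 15.4 (median 7.91) in Western females, again with no overlap. In males it ranged from 9.55 to 49.9 CPM (median 14.8) in controls and from 10.9 to 16.8 (median 12.9) after Western diet. Abcg4 fell by 1.81 ± 0.30 on the log2 scale in females (adjusted p = 0.000779) and by 1.15 ± 0.21 in the average (adjusted p = 0.00146), with -0.48 ± 0.29 in males (adjusted p = 0.675). Both calls held in all 24 leave-one-out fits.

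Of 24 genes of cholesterol synthesis and its SREBP2 control, 0 rose and 2 fell in the average, beside 2.19% and 3.51% of all genes. The 2 were Fdft1 (squalene synthase, -0.50 ± 0.10, adjusted p = 0.00344) and Idi1 (-0.37 ± 0.10, adjusted p = 0.0285). Fdft1 also fell in females (-0.63 ± 0.14, adjusted p = 0.00972), and in males 0 of 24 were called, against 0.0102% of all genes. The list's median was -0.15 in the average, with 20 of 24 estimates below 0, beside 8894 of 19616 over all genes. By unadjusted p under 0.05 (edgeR), 6 of 24 passed in females, 6 in males and 11 in the average. The shares of all genes were 21.3%, 8.45% and 20.6%. Without female control 3, female control 6 or Western male 5 the call of Idi1 was lost (-0.35, -0.34 and -0.36). Without both female control libraries of batch 3, the average call held for Scd2, Soat2, Abcg4 and Fdft1 and was lost for Arl4c, Soat1, Cyp39a1, Idi1 and Scd1 (adjusted p = 0.0658 to 0.157).

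**Figure D5:**
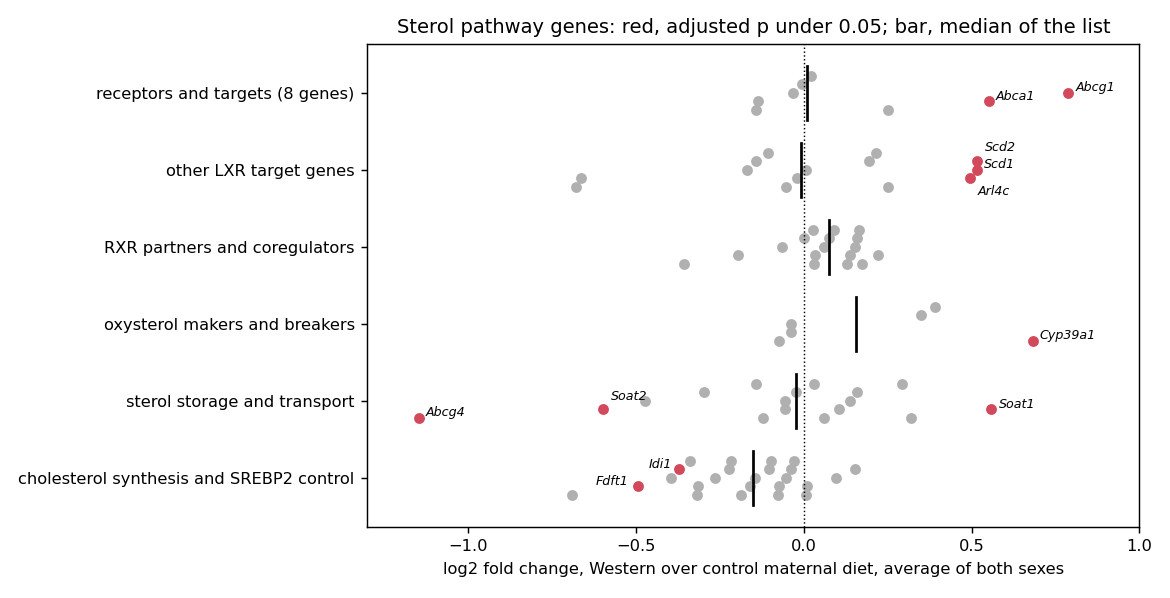
Log2 fold change with maternal Western diet, average of both sexes (horizontal axis), for the tested genes of 6 lists, 1 list a row. Each point is a gene, red where the adjusted p is under 0.05, and the black bar is the median of the list. Most lists have medians near 0, with Abca1, Abcg1, Cyp39a1, Soat1, Scd1, Scd2 and Arl4c red on the right and Abcg4, Soat2, Fdft1 and Idi1 red on the left.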

How the data were processed

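Raw read counts per gene were deposited by the authors, 1 file for each of the 24 libraries. Per the labels' protocols, RNA with an integrity number above 8.0 entered a low-input polyA kit, and reads were handled with cutadapt, FastQC, STAR and HTSeq on the mouse build GRCm39, per the submitters' processing notes, which also name DESeq2. Their versions, the strand setting and the annotation release are not given in the sources here. The rows HTSeq adds for reads outside genes made up 31.0 to 39.3% of a file's total (median 34.8%) and were left out. Symbols (52081 of 55414 identifiers) and exon lengths came from an annotation of the older build GRCm38, which gave no coordinates for the counts. No library was a copy of another: between the closest pair, counts still varied 24.5 times more than sampling alone gives (chi-square over its degrees of freedom).

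Counts were tested in edgeR 4.0.16 (R 4.3.3): filterByExpr at a minimum count of 10, TMM scaling (factors 0.932 to 1.05), and a quasi-likelihood fit, robust, of group and batch to all 24 libraries, with two-sided p-values adjusted by Benjamini-Hochberg over 19616 genes and called under 0.05. The standard error is the log2 fold change over the root of F. Correlations used log2(CPM + 1), with two-sided permutation tests in NumPy 2.4.6 (Python 3.11.15). The fit was tested on simulated data. Alternatives were RLE scaling, no filter, a stricter filter, DESeq2 1.42.0, limma-voom 3.58.1 with quality weights, no batch term, a replicate block, only the groups compared, and leaving out batches or libraries.

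The 8 genes and all lists were chosen with earlier results of these data known. From each pathway list up to 4 called genes and the most abundant were eligible for naming, and marker lists are given as counts. Replicate numbers were not taken to pair libraries, because same-numbered libraries did not deviate together beyond their shared batch. Dams, litters and protein sequences were not analysed here, and some genes of the pathway lists are not reported here.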

Additional observations from a re-analysis of the deposited data

Results flagged for a closer look

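In 32 sets of 6 libraries, 1 for each of the 8 genes in each group, a single library stood apart by the gap to its nearest neighbour relative to the set's range (above 0.625, the 95% critical value of Dixon's test for 6 values). It was Abcg1 in Western female 3, at 855.6 CPM, where the other 5 Western females lay between 167.4 and 374.9. Chance flags about 1 set in 20. The other 7 genes of that library lay within the spread of their group by this measure. Of all 24 libraries it had the highest share of reads outside annotated features, 16.4%, and the highest share in no gene, 39.3%, and the part of these in its Abcg1 level was not tested.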

How the results depend on the processing

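Abca1 and Abcg1 kept a positive sign for diet under every alternative run, in females, in males and in the average, but several alternatives ended their calls. The average of Abca1 was not called without a batch term (0.59), without batch 1 (0.39) or batch 2 (0.54), or within batches 1, 2 and 3 (0.84, 0.56 and 0.26), and stayed called with any library left out (0.48 to 0.62). The average of Abcg1 was not called without batches 1, 2 and 3 (0.83, 0.51 and 0.99), within them (0.68, 1.30 and 0.36) or without both female control libraries of batch 3 (0.78), and stayed called with any library left out (0.59 to 0.85). Abcg1 in females was not called without a batch term (1.02), in a fit of the females alone (0.89), without batches 1, 2 and 3 (1.02, 0.59 and 1.14), within them (0.72, 1.60 and 0.42) or without that pair (0.93), and spanned 0.54 to 1.07 over fits that left out 1 library. Abca1 in males was called with no filter (0.66, adjusted p = 0.0233). Fits within a batch or without one have fewer samples.

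With the replicate number as a block, Abcg1 in females was 0.87 (adjusted p = 0.0545), 0 of the 8 genes were called in females and 1 gene of all in males. Same-numbered libraries of different groups had a median within-batch correlation of -0.06, and 12 of 36 pairs exceeded 0.1. For different numbers the median was 0.06, and 12 of 36 exceeded 0.1. With 2 libraries per group and batch, each value occurs again in its batch, and different numbers only reverse its sign. The 36 pairs are therefore not independent. The numbers were not taken as pairing, and 16 of 24 libraries correlated best with their own number.

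The number of the 8 genes called was 1 in females. It was 0 without a batch term, in females alone, without any 1 batch, within batch 1 or 2 and without that pair, 1 within batch 3 (Srebf1, lower), and 0 to 1 over fits leaving out 1 library. In the average it was 2, and 1 without a batch term, without batch 3 or without that pair, 0 without batch 1 or 2 and 0 within each batch. With no filter it was 2 in males (Abca1 and Abcg1), 1 for the difference between the sexes' diet effects (Srebf1) and 2 for sex in controls (Apoe and Srebf1). For batch it was 4, 2 without that pair and 2 to 4 with 1 library left out.

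Over all genes, 1064 were called in females, 2023 with no filter, 1776 by DESeq2, 404 without a batch term, 358 in females alone, 1839, 297 and 146 without batches 1, 2 and 3, 0, 22 and 2719 within them, 154 without that pair and 504 to 1386 with 1 library left out. In males 2 were called, 380 with no filter, 7 with the stricter filter, 100 by DESeq2, 112 by limma-voom, 0 without a batch term, 1 in males alone, 1, 1 and 0 without batches 1, 2 and 3, 0 within each, and 1 to 13 with 1 library left out. In the average 1118 were called, 1693 with no filter, 1781 by DESeq2, 466 without a batch term, 556 and 143 without batches 2 and 3, 0, 1 and 1781 within batches 1, 2 and 3, 447 without that pair and 716 to 1464 with 1 library left out.

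The correlation of Abca1 and Abcg1 was 0.40 without the 2 libraries farthest from the median of Abca1, no longer past the threshold, and reversed within batch 3 (-0.14). Other pairs that changed sign within a batch, with an unadjusted permutation p under 0.05 over all libraries or in that batch, were Nr1h3 with Nr1h2 (0.87, batch 1), with Abca1 (-0.11, batch 2), with Apoe (-0.17 and -0.043, batches 2 and 3) and with Srebf1 (0.73, batch 1), and Abca1 with Mylip (-0.28, batch 3). A fit of only the groups compared was not run for the average and the difference of effects, which use all groups, and batch was not tested without or within batches. The cause of these shifts was not tested.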
